A study of Mus musculus with 8 samples.

Results

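Transcripts of the histone deacetylase genes Hdac1 to Hdac10 were examined in gamma delta (γδ) T cells sorted from visceral adipose tissue of C57BL/6 mice. The members are the rows of the deposited count table that carry these 10 symbols, out of 47729 genes listed, and all 10 symbols were found. Bulk polyA RNA was sequenced in 4 chow samples and 4 samples of animals given KD, a ketogenic diet, which is rich in fat, poor in carbohydrate and raises circulating ketone bodies. Feeding lasted 1 week. No allele, transgene or agent besides diet is listed for either group. The age of the mice, and whether a sample is 1 mouse or a pool, are not given in the sources used here, so the spread behind the p-values may be technical in part.

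Histone deacetylases remove acetyl groups from lysines of histones and of other proteins, and in the nucleus they act mostly within corepressor complexes that lower transcription. The class I enzymes Hdac1, Hdac2, Hdac3 and Hdac8 are mainly nuclear. The class IIa enzymes Hdac4, Hdac5, Hdac7 and Hdac9 have little catalytic activity of their own, bind MEF2 transcription factors and shuttle out of the nucleus when kinases phosphorylate them. The class IIb enzymes Hdac6 and Hdac10 act largely in the cytoplasm. The ketone body β-hydroxybutyrate has been described as an inhibitor of class I deacetylases in cultured cells and mouse kidney, and transcript levels do not measure that activity.

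The sort and the libraries were checked first. Library totals ran from 19796112 to 31926427 estimated counts. All 10 γδ T cell identity genes were detected, and their summed level was 11718 to 12221 CPM in chow and 12020 to 13654 CPM in KD (CPM are counts divided by library size, with library sizes adjusted by TMM factors). Cd4 had 0 counts in all libraries, while the 7 αβ T cell genes together stood at 769 to 1031 CPM. Nearly all of this was Trbc2 (439 to 600 CPM), Trbc1 (253 to 366 CPM) and Trac (51.9 to 128 CPM), present in every library. Libraries differed in RNA of other adipose tissue cells. The 12 stromal and mesothelial markers summed to 494 to 646 CPM in KD replicates 2, 3 and 4 and to 16.5 to 215 CPM in the other libraries, with 2 of the 10 tested markers called. The 10 endothelial markers summed to 261 and 393 CPM in KD replicates 3 and 4 and to 51.7 to 124 CPM elsewhere. The 7 adipocyte markers summed to 227 and 404 CPM in those KD replicates and to at most 35.4 CPM elsewhere. Most of this in those replicates was Fabp4 (216 and 386 CPM). Adipoq, Cidec, Lep, Plin1 and Plin4 reached at most 0.93 CPM in any library. The 9 macrophage and monocyte markers summed to 2.97 to 88.2 CPM in chow and 3.28 to 29.5 CPM in KD. The highest sum was that of chow replicate 4, where Lyz2 alone gave 82.5 CPM, and the other chow libraries reached at most 7.11 CPM. The 6 B cell markers, mostly Cd79b, summed to 30.9 to 46.9 CPM in chow and 59.2 to 87.8 CPM in KD. In bulk RNA, fewer cells of a type and less RNA per cell cannot be told apart.

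Start-site sequences were available for 7 members in the RefSeq promoter table (GRCm38.p6), and 4 are shown because they span the range of levels described next. They are the 250 bases before a listed start, 5′ to 3′ on the gene's strand, with CpG dinucleotides in capitals. The windows of Hdac2 and Hdac9 end at the annotated 5′ end of the gene, and those of Hdac5 and Hdac8 do not. Most of the Hdac8 window lies inside the annotated gene. Hdac2 (chr10:36974294-36974543, plus strand) is the highest of the 7 in transcript level, Hdac9 (chr12:34917096-34917345, minus strand) is near 0, Hdac8 (chrX:102505159-102505408, minus strand) has the largest fold change estimate of the 9 tested members, and Hdac5 (chr11:102230173-102230422, minus strand) holds a match to the MEF2 consensus, the motif of the factors that class IIa enzymes bind.
Hdac2: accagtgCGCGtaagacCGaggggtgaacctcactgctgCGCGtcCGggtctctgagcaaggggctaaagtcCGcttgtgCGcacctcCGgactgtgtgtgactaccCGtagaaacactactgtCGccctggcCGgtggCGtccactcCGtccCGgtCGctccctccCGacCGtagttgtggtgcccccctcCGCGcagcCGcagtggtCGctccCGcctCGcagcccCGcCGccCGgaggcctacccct
Hdac5: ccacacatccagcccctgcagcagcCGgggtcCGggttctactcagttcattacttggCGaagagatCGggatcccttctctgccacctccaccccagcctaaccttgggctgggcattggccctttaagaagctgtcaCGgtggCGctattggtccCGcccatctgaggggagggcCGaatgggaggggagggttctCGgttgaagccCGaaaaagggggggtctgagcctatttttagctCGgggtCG
Hdac8: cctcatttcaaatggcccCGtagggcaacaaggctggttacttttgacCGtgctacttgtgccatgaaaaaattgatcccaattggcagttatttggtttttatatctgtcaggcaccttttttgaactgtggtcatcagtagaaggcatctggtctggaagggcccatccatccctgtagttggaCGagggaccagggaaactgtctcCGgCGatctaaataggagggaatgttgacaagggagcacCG
Hdac9: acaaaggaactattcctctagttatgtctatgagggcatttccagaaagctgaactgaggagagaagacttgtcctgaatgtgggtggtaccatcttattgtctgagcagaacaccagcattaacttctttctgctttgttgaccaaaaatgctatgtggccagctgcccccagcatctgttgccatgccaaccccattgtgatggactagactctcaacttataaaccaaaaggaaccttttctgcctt

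The Hdac2 window holds 27 CpG, more than 91.4% of the 32851 windows in the table, whose median is 6. The Hdac5 window holds 12 and the Hdac8 window 6. The Hdac9 window holds 0, as do 7.87% of all windows, and its other listed start has 2. Hdac4 has 23 and Hdac6 17, and the 4 listed starts of Hdac7 have 5 to 25. The listed start of Hdac4, the other start of Hdac9 and all but 1 start of Hdac7 lie inside the annotated gene. On either strand, the GC box GGGCGG (32.7% of all windows) was found at the starts of Hdac2, Hdac4, Hdac5 and Hdac6 and at 1 start of Hdac7. The letters CCAAT (33.8%) were found for Hdac4, Hdac5, Hdac6 and Hdac8, and TATAAA (12.4%) for Hdac8 and for the printed start of Hdac9, 24 bases before it. Of the members' windows, only that of Hdac5 held a match to the MEF2 consensus (2.92% of all windows, read the same on both strands), 11 bases before the start. None of these matches overlapped a match of another of the 4 motifs, and a match is a description of letters, not of a bound site.

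Gene positions are given on the mouse build GRCm38 (GENCODE M21 annotation). Hdac1 is at chr4:129516104-129542713, Hdac2 at chr10:36974544-37001889, Hdac3 at chr18:37935844-37955016 and Hdac8 at chrX:102284639-102505359. Of class IIa, Hdac4 is at chr1:91928779-92195699, Hdac5 at chr11:102194432-102230166, Hdac7 at chr15:97792664-97844502 and Hdac9 at chr12:34047580-34917095. Hdac6 is at chrX:7930120-7947889 and Hdac10 at chr15:89123307-89128700. Only Hdac2 is on the plus strand. Exons of 3 members share bases with another gene: Hdac4 with Gm26720 on the opposite strand (3536 bases), Hdac5 with Mir8101 (111 bases) and Hdac7 with Slc48a1 on the opposite strand (29 bases). Whether counting used strand is not stated in the labels, so reads from such bases are uncertain.

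The 10 genes spanned a wide range of levels, with Hdac1 highest and Hdac9 near 0. Levels between genes are compared as FPKM, the authors' fragment counts scaled by transcript length and library size, averaged over all 8 libraries. Hdac1 was highest at 107 ± 5.79 FPKM (SD, n = 8), above 91.8% of the 13397 tested genes. Hdac2 followed at 53.9 ± 5.68, Hdac3 at 30.8 ± 3.18, Hdac5 at 20.1 ± 4.64, Hdac4 at 17.2 ± 1.31, Hdac7 at 13.6 ± 2.34 and Hdac8 at 9.44 ± 3.24 FPKM. Hdac10 stood at 4.31 ± 1.09 and Hdac6 at 4.004 ± 1.26 FPKM, below the median of tested genes (33.8% and 32.6% of them were lower). Hdac8 lay slightly below that median as well (48.4% of tested genes were lower). Hdac9 was at 0 to 0.46 FPKM. The order of means was the same in chow and in KD, apart from Hdac10 and Hdac6, which changed places.

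**Figure D1:**
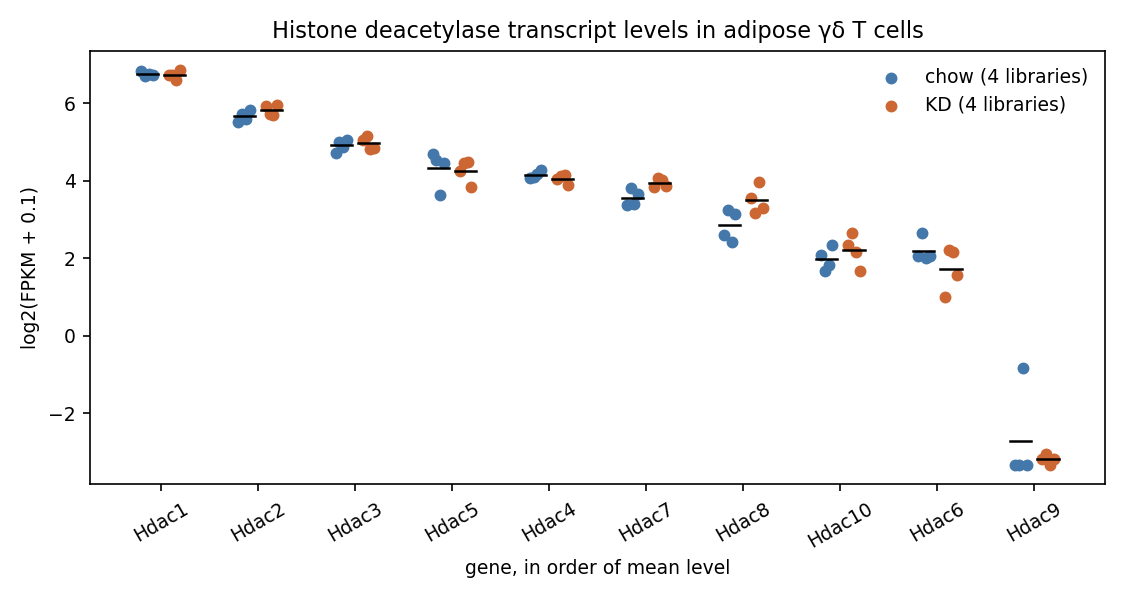
Transcript level of each histone deacetylase gene as log2(FPKM + 0.1), with 4 chow libraries (blue) and 4 KD libraries (orange) as points and group means as bars. Hdac1 is highest in every library, and Hdac9 lies near the floor except for 1 chow library at 0.46 FPKM.

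Neighbours in this order were compared within libraries on the log2(FPKM + 0.1) scale, by an exact two-sided sign-flip permutation test over the 8 libraries with adjustment over the 9 pairs. Hdac1 exceeded Hdac2 in 8 of 8 libraries (1.99-fold on average, adjusted p = 0.0100), and Hdac2 exceeded Hdac3 in 8 of 8 (1.74-fold). The same held, with the same adjusted p, for Hdac3 over Hdac5 (1.56-fold), Hdac4 over Hdac7 (1.28-fold), Hdac7 over Hdac8 (1.49-fold), Hdac8 over Hdac10 (2.11-fold) and Hdac6 over Hdac9. The smallest unadjusted p that 8 libraries allow is 0.00781. The order, and with it the choice of pairs, came from the same 8 libraries that the test used. The test measures how steady an FPKM difference was over libraries. It cannot tell a difference in transcript level from an error in a gene's FPKM that all libraries share. Hdac5 and Hdac4 did not differ beyond their spread (Hdac5 higher in 6 of 8, exact permutation adjusted p = 0.202), but without chow replicate 3 they did (adjusted p = 0.0352). Hdac10 and Hdac6 did not differ either (Hdac10 higher in 5 of 8, exact permutation adjusted p = 0.578), and without KD replicate 1 the mean difference changed sign.

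Summed by class, the 4 class I genes made up 74.7% to 81.4% of the family's FPKM in single libraries, the 4 class IIa genes 16.4% to 21.9% and the 2 class IIb genes 2.25% to 3.99%. Hdac1 alone gave 37.6% to 45.3%. The family total was 256 ± 12.03 FPKM in chow and 265 ± 6.25 FPKM in KD (SD, n = 4 each), and the ranges overlapped.

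Between the diets, 0 of the 9 tested members passed the threshold of adjusted p under 0.05 (edgeR's quasi-likelihood test, adjusted over 13397 genes), where 0.508% of all tested genes did. At an unadjusted p under 0.05 there was 1 member, Hdac8, against 8.63% of all genes. DESeq2 likewise called 0 members, where it called 3.04% of the genes to which it gave an adjusted p. Of the 9, 6 had a positive fold change (50.4% of all tested genes did) and 3 a negative one, with a median log2 fold change of 0.097 against 0.00335 over all tested genes. In CPM the chow and KD libraries overlapped for all 9, whereas they were apart for 6.02% of tested genes. Hdac9 missed the count filter and is given by its counts. Intervals below are 95% intervals of the log2 fold change (KD minus chow), not adjusted for the number of genes.

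**Figure D2:**
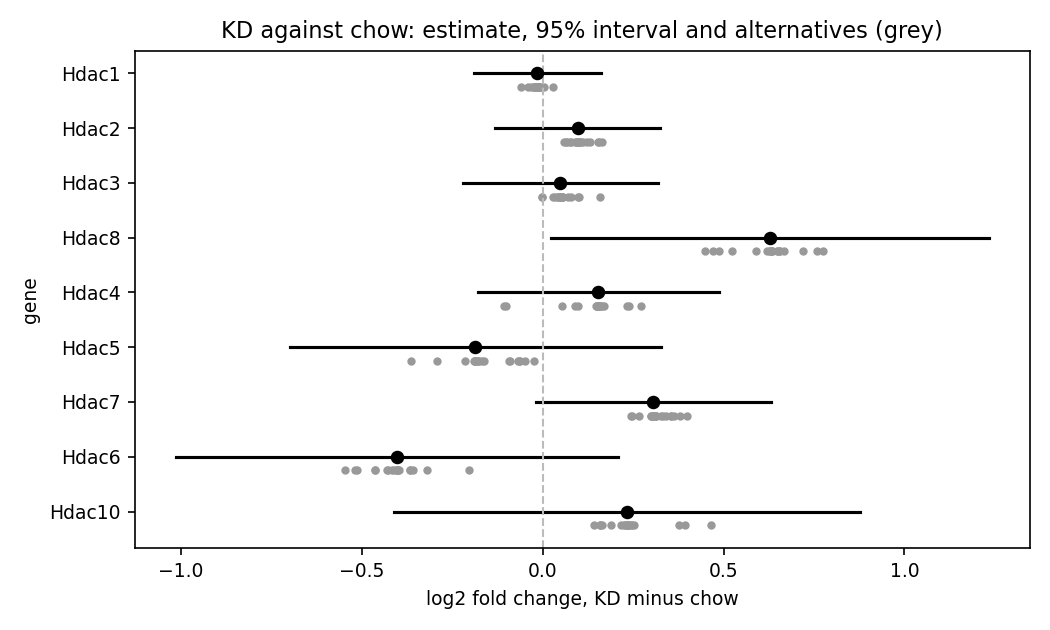
Log2 fold change (KD minus chow) of the 9 tested members, with the estimate (black point), its 95% interval (line) and the values under 19 alternative settings (grey points). Intervals are narrowest for Hdac1, and that of Hdac8 alone lies above 0 before adjustment.

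Hdac1 and Hdac2 are the catalytic subunits of the NuRD, Sin3, CoREST and MiDAC corepressor complexes. Hdac1 was at 213, 194, 209 and 207 CPM in chow replicates 1 to 4 and at 205, 201, 186 and 222 CPM in KD replicates 1 to 4. The KD libraries lay on both sides of the chow range. Its log2 fold change was -0.016 (SE 0.079, interval -0.19 to 0.16, adjusted p = 0.983). A single-exon gene at chr17:78491582-78493025, Gm10093, matched Hdac1 transcripts at 99.4% identity over 1444 bases and received 143 to 277 estimated counts per library against 3696 to 6623 for Hdac1. Its reads and those of Hdac1 are hard to separate, and with both summed the log2 fold change of Hdac1 was -0.021 (adjusted p = 0.978). Other transcripts also matched Hdac1 transcripts, among them AC125456.1 at 96.3% identity over 1450 bases. Their part in the Hdac1 counts was not tested.

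Hdac2 was at 86.3, 90.9, 87.6 and 105 CPM in chow and at 106, 93.3, 92.7 and 103 CPM in KD. Chow replicates 1, 2 and 3 lay below every KD library, and chow replicate 4 lay among them. The log2 fold change was 0.097 (SE 0.10, interval -0.13 to 0.33, adjusted p = 0.882). Hdac3 is the catalytic subunit of the NCoR complex, through which nuclear receptors repress their targets. It was at 51.2, 59.7, 56.5 and 63.3 CPM in chow and at 62.6, 65.8, 54.03 and 56.0 CPM in KD. The groups were mixed, and the log2 fold change was 0.049 (SE 0.12, interval -0.22 to 0.32, adjusted p = 0.964).

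Hdac8, an X-linked class I enzyme that works outside the large corepressor complexes and deacetylates the cohesin subunit SMC3, had the largest estimate of the 9 tested members. It was at 9.95, 16.3, 8.93 and 16.7 CPM in chow and at 19.3, 16.1, 26.4 and 18.4 CPM in KD. Chow replicates 1 and 3 were low, chow replicates 2 and 4 exceeded KD replicate 2, and KD replicate 3 stood highest. The means were 12.95 ± 4.08 and 20.03 ± 4.45 CPM (SD, n = 4 each), and the log2 fold change 0.63 (SE 0.27, interval 0.02 to 1.23, adjusted p = 0.56). KD replicate 3 is also 1 of the 2 libraries where Fabp4 and the summed endothelial markers were high. KD replicate 4, where Fabp4 and that sum were highest, had 18.4 CPM of Hdac8. Without both libraries the log2 fold change was 0.45 (adjusted p = 0.924). That fit keeps only KD replicates 1 and 2, of which KD replicate 2 was rich in stromal and mesothelial RNA. The part of RNA from other cells in the Hdac8 values was not tested.

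**Figure D3:**
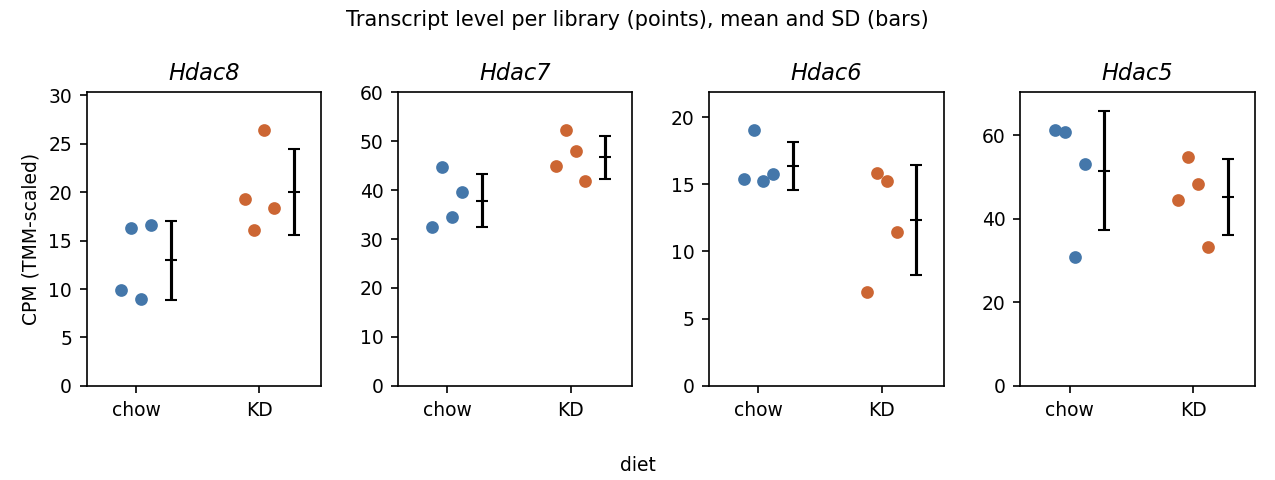
CPM of Hdac8, Hdac7, Hdac6 and Hdac5 in each of the 4 chow and 4 KD libraries (points), with mean and SD beside them. In all 4 genes the ranges of the diets overlap, and KD replicate 3 has the highest Hdac8 value at 26.4 CPM.

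Of the class IIa genes, Hdac7, which is abundant in thymocytes and also in endothelium, came closest to a separation of the diets. It was at 32.5, 44.7, 34.5 and 39.6 CPM in chow and at 44.9, 52.2, 47.9 and 41.9 CPM in KD. Only chow replicate 2 exceeded a KD library. The log2 fold change was 0.31 (SE 0.15, interval -0.02 to 0.63, adjusted p = 0.609). In FPKM, KD (14.2, 16.7, 16.1 and 14.5) lay above chow (10.3, 14.01, 10.5 and 12.5) in every library. Hdac7 was the 1 member whose groups were apart in FPKM, against 5.97% of tested genes (3.51% higher and 2.46% lower in KD), and limma on log2(FPKM + 1) gave adjusted p = 0.503. Summed endothelial markers were 124, 56.8, 53.1 and 51.8 CPM in chow and 51.7, 59.1, 261 and 393 CPM in KD replicates 1 to 4. Without KD replicates 3 and 4 the log2 fold change of Hdac7 was 0.36 and the gene was not called. Stromal and mesothelial markers summed to 562 CPM in KD replicate 2, which that fit keeps. The part of RNA from these other cells in the Hdac7 values was not tested.

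Hdac5 varied 1.98-fold over the libraries. It was at 61.2, 60.9, 30.9 and 53.1 CPM in chow and at 44.7, 54.8, 48.3 and 33.3 CPM in KD. Chow replicate 3 and KD replicate 4 were the low libraries, 1 of each diet. The log2 fold change was -0.19 (SE 0.23, interval -0.70 to 0.33, adjusted p = 0.909). Leaving out chow replicate 3 gave -0.36, and leaving out KD replicate 4 gave -0.064.

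Hdac4 had a log2 fold change whose sign depended on whether counts or FPKM were used. In CPM it was at 42.9, 49.3, 49.4 and 58.4 in chow and at 67.2, 53.6, 55.6 and 46.1 in KD (log2 fold change 0.15, SE 0.15, interval -0.18 to 0.49, adjusted p = 0.869). In FPKM it was at 16.8, 17.2, 17.9 and 19.5 in chow and at 16.5, 17.3, 17.6 and 14.8 in KD, where limma on log2(FPKM + 1) gave -0.10 (adjusted p = 0.881). CPM on unscaled totals divided by FPKM gives the transcript length that the authors' values imply for a gene in a library, which is a mean over its transcripts weighted by their estimated share. For Hdac4 this implied length was 2.55, 2.94, 2.74 and 2.93 kb in chow and 4.10, 3.12, 3.16 and 3.10 kb in KD.

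The implied length of Hdac4 was longer in all 4 KD libraries than in any chow library, and the lowest KD value was 1.05 times the highest chow value. KD replicate 1 stood apart from the rest. The mean length in KD was 1.21 times that in chow, and 1.12 times without KD replicate 1. Among 8763 genes with at least 100 counts and 1 FPKM in every library, 0.445% had longer implied lengths in all KD libraries by over 1% and 0.582% shorter ones, and Hdac4 was the 1 of 9 members apart in either direction. The ratio of highest to lowest implied length over libraries was 1.61 for Hdac4, with KD replicate 1 as the highest library. Among the 8763 genes this ratio was 1.08 for the median gene and 1.43 at the 90th percentile. Hdac4 has 12 annotated transcripts of 407 to 8100 bases, and the deposited tables do not give values per transcript. The opposite-strand gene Gm26720 had 25.3 and 48.1 estimated counts in KD replicates 1 and 2 and 0 in the other libraries, and its part in the implied length was not tested.

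**Figure D4:**
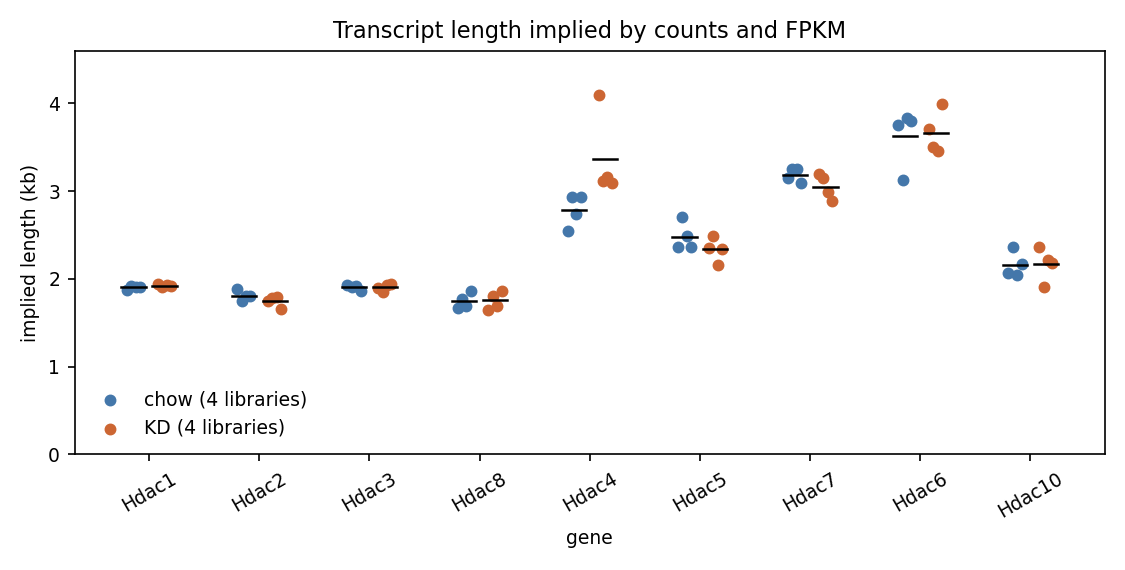
Transcript length in kb implied by the deposited counts and FPKM for the 9 tested members, with 4 chow (blue) and 4 KD (orange) libraries as points and means as bars. Hdac4 runs from 2.55 to 2.94 kb in chow and from 3.10 to 4.10 kb in KD, while the groups of the other members overlap.

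Hdac9, the remaining class IIa gene, was close to the detection limit. Chow libraries had 0, 0, 64 and 0 counts and KD libraries 1, 2, 0 and 1. Its chow signal thus came from chow replicate 3 alone. In the libraries with 0 counts, a level of up to 0.0970 to 0.152 CPM is allowed by 3 counts, an allowance for counting error only. Without the count filter the gene was not called (edgeR adjusted p = 0.579). Chow replicate 3 held 27 genes with at least 30 counts there and at most 2 in any other library, Hdac9 among them, and the other libraries held 15 to 64 such genes each.

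The class IIb genes were both low. Hdac6, an X-linked cytoplasmic enzyme that deacetylates tubulin, was at 15.4, 19.01, 15.3 and 15.8 CPM in chow and at 6.95, 15.8, 15.2 and 11.5 CPM in KD. KD replicate 2 lay within the chow range, KD replicate 3 just below it and KD replicates 1 and 4 further below. The log2 fold change was -0.40 (SE 0.28, interval -1.02 to 0.21, adjusted p = 0.763), and without KD replicate 1 it was -0.20. Hdac10, which deacetylates the polyamine N-acetylspermidine, was at 8.65, 7.22, 7.07 and 11.1 CPM in chow and at 11.6, 11.9, 9.74 and 6.84 CPM in KD. KD replicate 4 was the lowest library of all, and the log2 fold change was 0.23 (SE 0.29, interval -0.41 to 0.88, adjusted p = 0.909).

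The genes around the deacetylases were described through 9 lists of partners, opposing enzymes and substrates, 103 of whose 105 genes were tested. Of these 103, 0 rose and 1 fell (0.328% and 0.179% of all tested genes), 12 had an unadjusted p under 0.05 (8.63% of all tested genes did), and 6 had all KD libraries above chow and 5 all below (3.23% and 2.79% of all tested genes). The median log2 fold change was -0.0095. The gene that fell was Cdkn1a.

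**Figure D5:**
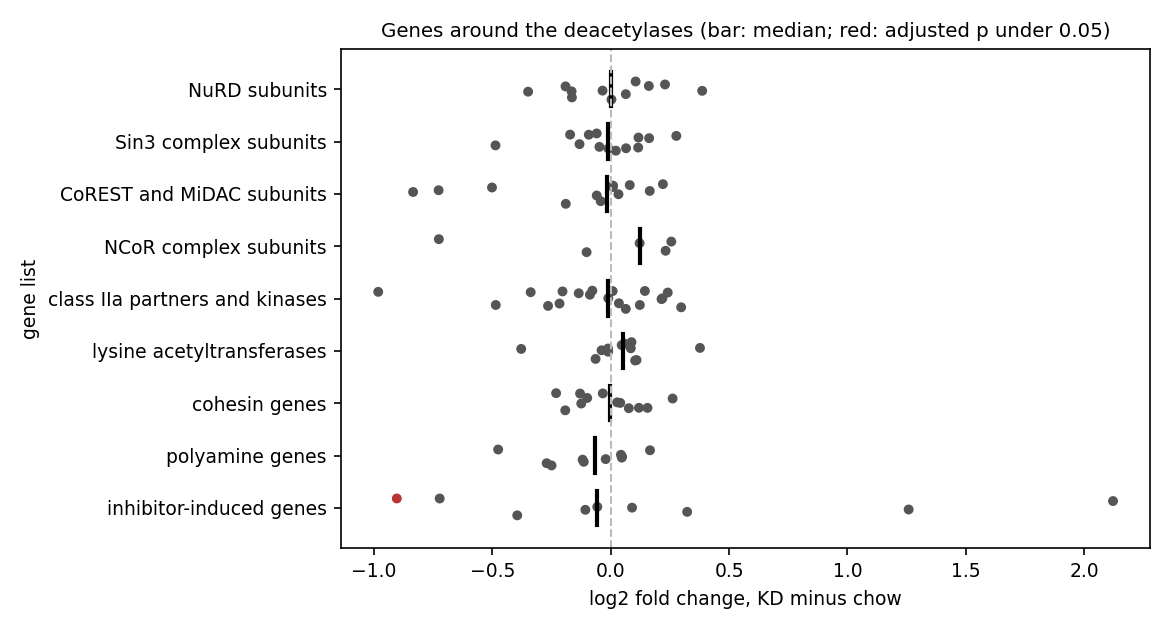
Log2 fold change (KD minus chow) of each tested gene in 9 lists of partners, opposing enzymes and substrates of the deacetylases, with list medians as bars and the 1 gene with adjusted p under 0.05, Cdkn1a, in red. List medians lie between -0.068 and 0.12.

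No subunit in the 4 corepressor complex lists passed. NuRD, which pairs Hdac1 and Hdac2 with a chromatin remodeller, had 11 tested subunits with a median log2 fold change of 0.0031. Its subunit Mta2 averaged 255 ± 14.9 CPM (chow) and 299 ± 32.2 CPM (KD) (edgeR adjusted p = 0.505), with all KD libraries above chow. Mta3, also above chow in all KD libraries, had a log2 fold change of 0.16 and the methyl-CpG-binding family member Mbd3 of -0.19. Of 13 Sin3 subunits the scaffold Sin3a had the smallest p, at -0.49 on the log2 scale (SE 0.25, adjusted p = 0.634), followed by Sap18 (-0.093) and Arid4b (0.16).

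Among 12 subunits of CoREST and MiDAC, the MiDAC scaffold Elmsan1 averaged 84.6 ± 14.3 CPM (chow) and 59.8 ± 7.06 CPM (KD; adjusted p = 0.275), and Trerf1 at 27.9 ± 7.53 and 16.9 ± 2.38 CPM (adjusted p = 0.305). Trerf1 was below chow in 4 of 4 KD libraries. Of the 5 tested genes of the NCoR list, 0 passed and 3 had an unadjusted p under 0.05. Ncor1, the scaffold that activates Hdac3, was at 488, 540.1, 529 and 486 CPM in chow and at 639, 563, 601 and 636 CPM in KD. All KD libraries were above chow (log2 fold change 0.26, SE 0.07, adjusted p = 0.237). Tbl1x, a subunit of the same complex, showed a value of 0.23 (adjusted p = 0.47), also with all KD libraries above chow.

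Of the class IIa partners and kinases, 0 of 19 tested genes passed (median -0.010), and Mef2c and Prkd1 missed the count filter. Sik1, a kinase that sends class IIa enzymes out of the nucleus, was at 321, 322, 331 and 336 CPM in chow and at 241, 257, 307 and 232 CPM in KD. All KD libraries were below chow (log2 fold change -0.34, SE 0.094, adjusted p = 0.236). For Ywhah, of the phosphoserine-binding family that holds them in the cytoplasm, the difference was 0.21 on the log2 scale (adjusted p = 0.391), and for the kinase gene Sik2 it was -0.49 (adjusted p = 0.646).

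The 12 lysine acetyltransferases, which oppose the deacetylases, had a median of 0.052 and 0 calls. The coactivator gene Ncoa3 averaged 94.7 ± 9.87 CPM (chow) and 72.9 ± 5.87 CPM (KD), lower in 4 of 4 KD libraries (adjusted p = 0.3005). Kat8 and Kat7 had log2 fold changes of 0.38 and 0.11. The 12 cohesin genes, on which Hdac8 acts through Smc3, had a median of -0.0030 and 0 calls. Smc3 itself was at 106 ± 12.1 and 118 ± 11.4 CPM (adjusted p = 0.787), with Rad21 at a log2 fold change of 0.26 and Nipbl at -0.12. The 10 polyamine genes had a median of -0.068 and 0 calls. Smox, spermine oxidase, was at 307 ± 18.2 and 254 ± 26.7 CPM (adjusted p = 0.391). Odc1, the first enzyme of polyamine synthesis, was at 538 ± 116 and 387 ± 60.9 CPM (adjusted p = 0.397), and Amd1 had a log2 fold change of -0.25.

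Of 9 genes known to be induced by deacetylase inhibitors or β-hydroxybutyrate in other cells, 0 rose and 1 fell, with a median of -0.057. Cdkn1a, which encodes the cell cycle inhibitor p21, was at 160, 155, 189 and 213 CPM in chow and at 102, 75.7, 116 and 89.996 CPM in KD. The groups were apart (log2 fold change -0.90, SE 0.15, edgeR adjusted p = 0.0359). Of 19 alternative settings, 9 kept the call and 10 lost it, while its direction held in all. The call was lost on leaving out any single library (edgeR adjusted p = 0.0569 to 0.134). It was also lost without KD replicates 3 and 4 (edgeR adjusted p = 0.26) and with the replicate block (edgeR adjusted p = 0.0711). H1f0, a linker histone gene, was at 134 ± 31.3 and 167 ± 27.8 CPM (adjusted p = 0.666). The metallothionein gene Mt2 was low, at 0.79, 0.037, 0.032 and 0.26 CPM in chow and at 0.62, 0.49, 3.28 and 0.56 CPM in KD, and did not pass (adjusted p = 0.69). Its highest library was KD replicate 3.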

How the data were processed

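Polyadenylated RNA of γδ T cells was measured in 8 libraries. Estimated counts and FPKM per gene are the authors' deposited values. The submitters' processing notes list BWA, TopHat2, RSEM, DESeq2 and GRCm38, with no versions or roles. Between 5310 and 5802 genes per library had counts that were not whole, and counts were rounded before fitting. Date-like symbols (27) were restored by identifier. Genes were filtered with filterByExpr (minimum count 10, total 15), scaled with TMM and tested with edgeR's quasi-likelihood F test (two-sided, robust, diet as the only term, Benjamini-Hochberg adjustment, threshold 0.05). Each standard error was derived from the estimate and F. The fits, tested on simulated data, used edgeR 4.0.16 and limma 3.58.1, with DESeq2 1.42.0 as an alternative, in R 4.3.3. Positions follow GENCODE M21 on GRCm38, and 6 of 10 member identifiers had the same version there.

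The members, lists and tests were chosen with earlier results of these data known. Named genes are the 10 members, Hdac11, and from each list the 3 tested genes with the smallest p and any called gene, of which 2 are not reported here. Copies were sought with blastn (at least 95% identity over 200 bases). Single-cell data mentioned in the design were not analysed here.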

Additional observations from a re-analysis of the deposited data

Results flagged for a closer look

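Among 58 groups of 4 libraries checked over CPM, FPKM and implied length of the members, 6 held a library set apart from the other 3 by most of the group's range. Chance flags about 1 in 20 such groups, and the measures of a gene are not independent.

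Hdac9 in chow replicate 3 stood at 2.02 CPM and 0.46 FPKM, with 0 in the other chow libraries. The implied length of Hdac4 in KD replicate 1 was 4.10 kb, against 3.10 to 3.16 kb in the other KD libraries. Hdac6 in chow replicate 2 was highest in its group at 19.01 CPM (the others 15.3 to 15.8) and 6.22 FPKM (the others 3.95 to 4.11), and its implied length of 3.12 kb was the shortest (the others 3.75 to 3.84 kb).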

How the results depend on the processing

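Under all 19 alternatives 0 members were called. Adjusted p of single members ran from 0.326 (Hdac8, DESeq2) to 1.0. The signs of Hdac2, Hdac5, Hdac6, Hdac7, Hdac8 and Hdac10 held throughout, with Hdac8 at 0.45 to 0.78 and Hdac7 at 0.24 to 0.40. Without single libraries Hdac2 ran from 0.064 to 0.165, Hdac4 from 0.054 to 0.239, Hdac5 from -0.364 to -0.064, Hdac6 from -0.546 to -0.203 and Hdac10 from 0.141 to 0.393. Hdac4 reversed with limma on log2(FPKM + 1) and log2(FPKM + 0.1), to -0.101 and -0.107. Leaving out single libraries moved Hdac1 between -0.059 and 0.028 and Hdac3 between -0.0033 and 0.10, both changing sign. The level of Hdac10 over Hdac6 ran from -0.0398 to 0.291 without single libraries. Of 9 neighbouring pairs, 7 passed, and 8 without chow replicate 3. Over all genes, 68 calls became 108 with a filter of 5 CPM in 4 samples, 470 with DESeq2, 126 and 119 on log2(FPKM + 1) and log2(FPKM + 0.1), 12 to 44 without single libraries and 4 without KD replicates 3 and 4; the cause was not tested. The replicate block gave 12 calls. Same-numbered libraries showed no sign of pairing. Their deviations from the group means correlated at -0.115 to 0.067, and 0 of 8 libraries correlated best with their own number. With 4 libraries per diet this check cannot exclude pairing. Adding Gm10093 to Hdac1 was chosen after seeing the data. Counts per library were lowest for Hdac9 (0 to 64), Hdac10 (148 to 336), Hdac6 (146 to 508) and Hdac8 (238 to 523), and the part of depth in their spread was not tested.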

Other observations

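Hdac11, the class IV deacetylase gene and no member of the set described, was at 6.39, 16.2, 3.85 and 5.30 CPM in chow and at 3.09, 5.95, 3.03 and 4.95 CPM in KD. Chow replicate 2 stood highest. The log2 fold change was -0.90 (SE 0.51, edgeR adjusted p = 0.685). Its exons share 690 bases with 2 genes on the opposite strand.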
